A study of Homo sapiens with 12 samples.

Results

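The genes described here are 35 genes of the endoplasmic reticulum (ER) whose products fold, quality-check or export new secretory proteins, or sense their misfolding. They were listed by gene symbol, by their known roles and with earlier results of these data known, from the 19973 genes of the deposited table, and all 35 symbols were found there. RNA was sequenced from H460 and A549, human non-small cell lung carcinoma (NSCLC) lines labelled WT. In each line, 3 libraries came from non-treated cells (control) and 3 from cells given 10 µM isovalerylspiramycin I (ISP-I), a macrolide compound, for 48 h, so 4 groups made 12 libraries. Each line stands for a single tumour, the label of the control names no vehicle, and the methods for the sequencing name replicates without saying whether they were separate cultures, so p values measure only the spread between these libraries, which may be technical. The comparison within a line asks which ER genes changed after ISP-I, and the comparison of the changes asks whether the lines differed.

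The values are the authors' FPKM, fragments on a gene scaled by its listed length and by the library's total on genes. Libraries held 14225849 to 17874422 reads on genes, and a library is named below by its order within its group. The epithelial markers KRT8, KRT18 and KRT19 stood at 43.8 FPKM or more in every library, while EPCAM and CDH1 stayed at or under 0.148 and 0.0458 FPKM in H460. The 5 epithelial markers summed to 924.1-1252 FPKM in A549 controls and 628.1-659.2 with ISP-I, against 355.5-431.6 and 327.3-414.9 in H460, and their part in the results was not tested. Leukocyte, endothelial and alveolar type 2 markers summed to at most 0.0679, 0.368 and 0.492 FPKM in any library. Fibroblast markers summed to 1.01-1.32 FPKM in H460 controls and 0.633-0.875 with ISP-I, against 0.704-1.10 and 0.731-1.03 in A549. Nearly all of this was COL1A1, which was called lower in H460 (log2 fold change -0.31, limma adjusted p = 0.0187), and its part in the results was not tested.

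Secretory and membrane proteins enter the ER through the SEC61 channel and are folded by chaperones. The Hsp70 chaperone HSPA5 (BiP), its J-domain partners, the lectins CALR and CANX, and protein disulfide isomerases do most of this work. When misfolded proteins accumulate, the sensors ERN1 (IRE1), ATF6 and EIF2AK3 (PERK) start the unfolded protein response (UPR). ERN1 splices XBP1 mRNA so that it encodes an active transcription factor, ATF6 is cut to release one, and PERK slows translation. The transcription factors raise chaperone genes and the genes of ER-associated degradation (ERAD), which sends misfolded proteins back to the cytosol for the proteasome. Spliced and unspliced XBP1 cannot be told apart in values per gene.

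ATF6 and XBP1 are known to act through short promoter elements, and these were looked for in the RefSeq promoters of GRCh38.p14, 250 bases before to 50 bases after a start. Of the 35 genes, 32 had such a promoter (not PDIA3, DERL1 or DERL3). The ER stress response element (ERSE; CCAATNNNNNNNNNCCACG, either strand) matched exactly in 8 of these 32 genes (25%) and in 25 of all 27305 genes with a promoter (0.0916%). ERSE-II (ATTGGNCCACG, either strand) matched in 3 of 32 (9.38%) and in 19 of all genes (0.0696%). The UPR element core (TGACGTGG, either strand) matched in DNAJC10 and HYOU1, where it overlaps an ERSE-II, and in 253 of all genes (0.927%). The ERSE genes were HSPA5, HSP90B1, CRELD2, CALR, CANX, PDIA6, ERO1B and XBP1, and the ERSE-II genes were HYOU1, SDF2L1 and HERPUD1. The sites are printed for the genes whose changes are followed library by library and for HYOU1, on the strand of the gene, with the match in capitals. The 35 genes were listed for known roles that include the UPR, so their larger share of matches is a description and was not tested. These matches describe letters in a window and do not show binding.
HSPA5, ERSE, chr9:125241386-125241414, minus strand, starting 66 bases upstream: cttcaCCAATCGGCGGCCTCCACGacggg
HSP90B1, ERSE, chr12:103930211-103930239, plus strand, starting 194 bases upstream: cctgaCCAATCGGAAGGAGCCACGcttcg
HSP90B1, ERSE in reverse, chr12:103930316-103930344, plus strand, starting 89 bases upstream: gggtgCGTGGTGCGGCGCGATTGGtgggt
CRELD2, ERSE in reverse, chr22:49918549-49918577, plus strand, starting 80 bases upstream: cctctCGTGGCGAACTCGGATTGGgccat
CALR, ERSE in reverse, chr19:12938379-12938407, plus strand, starting 225 bases upstream: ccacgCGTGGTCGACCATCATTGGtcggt
ERO1B, ERSE in reverse, chr1:236282178-236282206, minus strand, starting 243 bases upstream: gcccgCGTGGTCCCGCCTCATTGGccgcc
XBP1, ERSE, chr22:28800598-28800626, minus strand, starting 52 bases upstream: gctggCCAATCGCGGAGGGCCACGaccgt
HYOU1, ERSE-II in reverse, chr11:119057269-119057289, minus strand, starting 79 bases upstream: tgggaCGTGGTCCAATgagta
HYOU1, ERSE-II in reverse, chr11:119057375-119057395, minus strand, starting 185 bases upstream: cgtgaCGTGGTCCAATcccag
SDF2L1, ERSE-II in reverse, chr22:21642109-21642129, plus strand, starting 188 bases upstream: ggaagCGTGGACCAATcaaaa
HERPUD1, ERSE-II, chr16:56932020-56932040, plus strand, starting 117 bases upstream: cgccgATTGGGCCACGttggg
The HSP90B1 and CRELD2 sites lie upstream of the RefSeq start but inside the longer gene span that the deposited table lists.

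**Figure D1:**
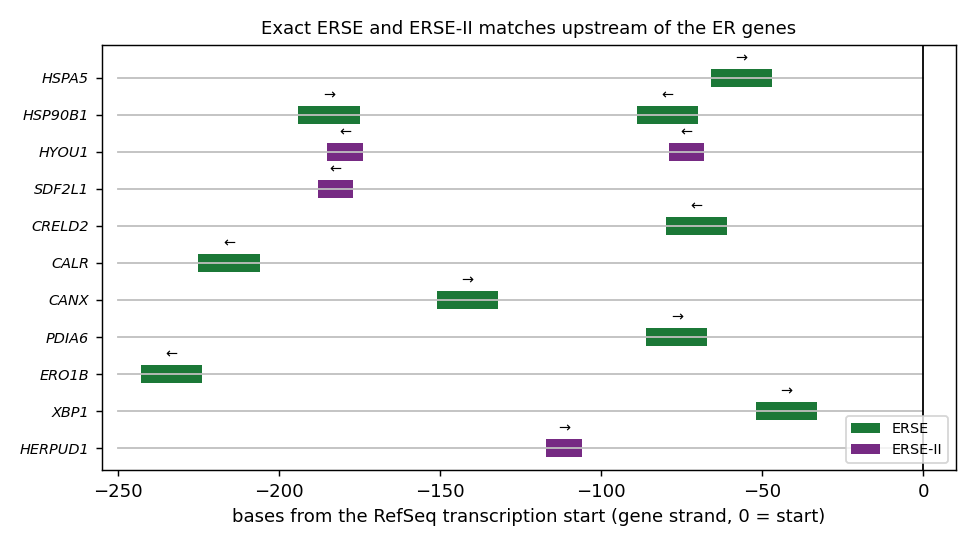
Positions of the exact ERSE (green) and ERSE-II (purple) matches in the 11 ER genes that hold one, in bases from the RefSeq transcription start on the gene's strand. Arrows give the orientation of the match, and HSP90B1 and HYOU1 hold a pair each.

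After ISP-I, the ER genes did not move as a block, and the lines differed. In H460, 15 of the 35 genes rose, 7 fell and 13 did not pass the test (limma on log2(FPKM + 1), Benjamini-Hochberg adjusted p under 0.05 over all genes tested). In A549, 8 of the 34 genes tested rose, 15 fell and 11 did not pass. DERL3, at 0 to 4 reads in each A549 library, was under the filter of a mean of 0.1 FPKM there. In H460, rises covered 27.6% and falls 41.5% of all 13423 genes tested, and in A549 30.5% and 27% of 13705. The share of ER genes that rose was thus 42.9% in H460 and 23.5% in A549, and the share that fell was 20% and 44.1%. The median log2 fold change of the ER genes was 0.13 in H460 and -0.20 in A549, beside -0.15 and 0.02 for all genes. Scaling the H460 libraries by median-of-ratios moved the median of all genes there by 0.16. Genes at high levels moved more, HSPA5 from 0.88 to 1.18 and PDIA4 from -1.21 to -0.91. For genes followed library by library the H460 change is also given relative to the unscaled median of all genes, -0.15. That is a smaller shift than the scaling made in such genes, and the relative value was not tested. In bulk RNA, a change in every cell and a change in a part of the cells cannot be told apart, and a value is a share of a library's fragments and not an amount per cell.

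At a fold change over 2, 7 ER genes were higher in H460 (DNAJB9, HSP90B1, DNAJC3, ERO1B, XBP1, ERN1 and HERPUD1) and 3 lower (SDF2L1, PDIA4 and EDEM2), where 10.5% and 15.2% of all genes passed. In A549, DNAJB9 and ERN1 were higher and CALR and PDIA4 lower at this fold, where 4.2% and 3.51% of all genes passed. By direction, 7 genes rose in each line (DNAJB9, ERO1B, XBP1, ERN1, ATF6, DERL2 and SEC61B) and 4 fell in each (HYOU1, SDF2L1, PDIA4 and EDEM2). A further 4 rose in H460 and fell in A549, namely HSPA5, DNAJB11, CRELD2 and CREB3L2. HSP90B1, DNAJC3, CANX and HERPUD1 rose in H460 without passing the test in A549, and CALR, PDIA3, PDIA6, P4HB, SEL1L, SYVN1 and DERL1 fell in A549 without passing it in H460. DNAJC10, ERO1A and WFS1 fell in H460 alone by the test, EDEM1 rose in A549 alone by it, and MANF, EDEM3, OS9, SEC61A1 and DERL3 passed in neither. The shares of all genes in these pairs of directions were not counted, so the counts by direction describe the ER genes alone.

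**Figure D2:**
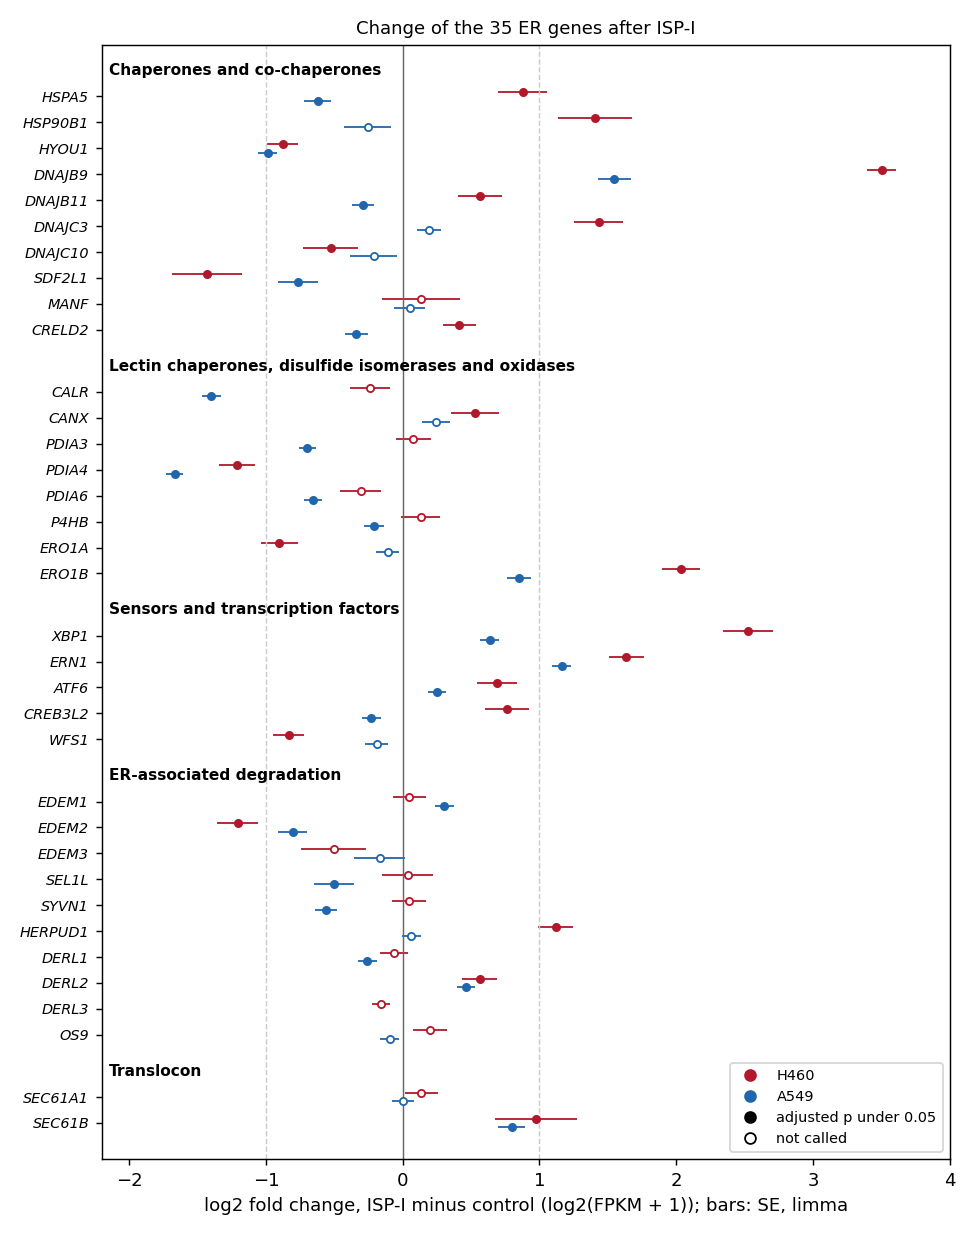
Log2 fold change after ISP-I (horizontal axis, log2(FPKM + 1), ISP-I minus control) of each ER gene in H460 (red) and A549 (blue), with the limma SE as bars and filled points for an adjusted p under 0.05. DNAJB9 lies farthest to the right in both lines, and HSPA5, DNAJB11, CRELD2 and CREB3L2 lie on opposite sides of 0 in the lines.

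Chaperones and co-chaperones held 3 of the 4 genes that rose in H460 and fell in A549. Of these 10 genes, 6 rose and 3 fell in H460 (median log2 fold change 0.49), and 1 rose and 5 fell in A549 (median -0.27). Among all genes, 27.6% rose and 41.5% fell in H460, and 30.5% rose and 27% fell in A549. DNAJB9 (ERdj4; ENSG00000128590, chr7:108569867-108574850), a J-domain co-chaperone of HSPA5 and a known XBP1 target, rose most. It stood at 2.82, 2.75 and 3.07 FPKM in H460 controls and 40.0, 43.9 and 45.0 FPKM with ISP-I. In A549 it stood at 4.27, 3.99 and 2.94 FPKM in controls and 13.2, 11.4 and 13.6 FPKM with ISP-I. Every treated library lay far above every control of its line, by 14.9-fold of means in H460 and 3.42-fold in A549. On the log2 scale the change was 3.50 ± 0.107 (SE) in H460, or 3.65 relative to all genes (adjusted p = 1.62e-07), and 1.55 ± 0.123 in A549 (adjusted p = 2.31e-05). On log2(FPKM + 1) these fold changes are smaller than the ratio of means where the control level is low.

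HSPA5 (ENSG00000044574, chr9:125234853-125241343), the main ER Hsp70, changed in opposite directions. It stood at 376, 364 and 327 FPKM in H460 controls and 736, 696 and 543 FPKM with ISP-I. In A549 it stood at 226, 228 and 187 FPKM in controls and 137, 130.3 and 147 FPKM with ISP-I. The groups did not overlap in either line, and the treated libraries were the higher in H460 and the lower in A549. Limma gave a log2 fold change of 0.88 ± 0.178 in H460, or 1.02 relative to all genes (adjusted p = 0.00225), and -0.62 ± 0.0965 in A549 (adjusted p = 0.000795). Without ISP-I library 3 the H460 value was 1.01 (adjusted p = 5.79e-05), over a fold of 2. It was also over this fold with median-of-ratios scaling (1.18, adjusted p = 0.000477) and by limma voom with median-of-ratios factors (1.18, 4.28e-05). Removal of each library's trend with gene length gave 1.15 (limma adjusted p = 0.000195). Among all genes, ranked by mean FPKM per group, HSPA5 moved from rank 62 to rank 36 in H460 and from rank 110 to rank 238 in A549.

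HSP90B1 (GRP94; ENSG00000166598, chr12:103930107-103953645), the ER Hsp90, rose in H460. Its levels there were 69.7, 50.8 and 63.6 FPKM in controls and 169, 238 and 108 FPKM with ISP-I. In A549 they were 104, 105 and 65.8 FPKM in controls and 68.0, 75.7 and 81.1 FPKM with ISP-I. The treated H460 libraries spread widely but all lay above the controls, while in A549 control libraries 1 and 2 lay above the treated libraries and control library 3 below them. This made a log2 fold change of 1.41 ± 0.27 in H460, or 1.56 relative to all genes (adjusted p = 0.00166), and -0.25 ± 0.172 in A549 (adjusted p = 0.235). Without control library 3, A549 gave -0.47 (adjusted p = 0.000122). The gene has near-identical pseudogene copies and overlaps C12orf73, so its reads may be shared.

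DNAJC3 (p58IPK; ENSG00000102580, chr13:95677139-95794988), a J-domain co-chaperone that also inhibits PERK, rose in H460 from 8.62, 6.69 and 7.12 FPKM to 21.4, 27.9 and 17.3 FPKM. In A549 its levels were 8.48, 8.35 and 6.86 FPKM in controls and 9.05, 9.04 and 9.25 FPKM with ISP-I. The H460 groups lay far apart, and the A549 groups were separated by little. As a log2 fold change this was 1.43 ± 0.178 in H460, or 1.58 relative to all genes (adjusted p = 0.000133), and 0.19 ± 0.0884 in A549 (adjusted p = 0.0976).

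DNAJB11 (ERdj3; ENSG00000090520, chr3:186567403-186585800), a J-domain protein that hands unfolded chains to HSPA5, stood at 10.2, 8.16 and 10.4 FPKM in H460 controls and 13.3, 12.7 and 18.2 FPKM with ISP-I. In A549 the levels were 6.93, 7.17 and 7.16 FPKM and 6.25, 5.37 and 5.27 FPKM. The treated libraries lay above the controls in H460 and below them in A549. In limma the log2 change was 0.56 ± 0.161 in H460, or 0.71 relative to all genes (adjusted p = 0.0129) against -0.29 ± 0.0816 in A549 (adjusted p = 0.016). Leaving out H460 control library 2 gave 0.46 in H460 (adjusted p = 0.0562), and leaving out A549 ISP-I library 2 or 3 gave -0.26 and -0.25 in A549 (adjusted p = 0.0664 and 0.0699). The A549 call was also lost in a fit of all 12 libraries (adjusted p = 0.0801). CRELD2 (ENSG00000184164, chr22:49918167-49927540), an ER stress-inducible protein with epidermal growth factor-like domains, went the same ways. Its levels were 8.89, 9.46 and 9.03 FPKM in H460 controls and 12.2, 11.1 and 14.4 FPKM with ISP-I. In A549 they were 4.72, 4.81 and 5.23 FPKM and 3.33, 4.04 and 3.70 FPKM. Neither line's groups overlapped, and the log2 fold change was 0.41 ± 0.122 in H460, or 0.56 relative to all genes (adjusted p = 0.0151) against -0.34 ± 0.0862 in A549 (adjusted p = 0.0101). Without H460 control library 1 or 3 the H460 adjusted p was 0.0516 and 0.0511. DNAJB11 overlaps TBCCD1 and AC068631.2 and CRELD2 overlaps ALG12, and the strand setting of the counting is not stated.

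SDF2L1 (ENSG00000128228, chr22:21642302-21644299), a partner of ER J-domain proteins, and HYOU1 (GRP170), a nucleotide exchange factor for HSPA5, fell in each line. SDF2L1 stood at 58.5, 65.4 and 51.7 FPKM in H460 controls and 20.8, 13.9 and 31.6 FPKM with ISP-I. In A549 its levels were 27.1, 25.0 and 38.6 FPKM and 16.4, 18.2 and 16.6 FPKM. All treated libraries lay below all controls, and the log2 scale gave -1.43 ± 0.255 in H460, or -1.28 relative to all genes (adjusted p = 0.00109), and -0.77 ± 0.147 in A549 (adjusted p = 0.00246). HYOU1 fell from 44.1 ± 3.55 to 23.5 ± 0.742 FPKM (mean ± SD, n = 3) in H460, a log2 fold change of -0.88 ± 0.112, or -0.73 relative to all genes (adjusted p = 0.00016), and from 20.0 ± 1.08 to 9.57 ± 0.373 FPKM in A549, -0.99 ± 0.0702 (adjusted p = 1.29e-05). The HYOU1 change of A549 lay just under a fold of 2, and was -1.03 without control library 3 and -1.01 without ISP-I library 1. Thus 2 of the 3 genes with an ERSE-II fell in each line, and HERPUD1, the other one, is described below.

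DNAJC10 (ERdj5), a J-domain disulfide reductase, had a log2 fold change of -0.53 ± 0.201 in H460 (adjusted p = 0.044) against -0.21 ± 0.173 in A549 (adjusted p = 0.321). Its H460 call was lost with median-of-ratios scaling (adjusted p = 0.208), with quantile normalization (0.194), by limma voom with median-of-ratios factors (0.164), without the filter (0.0779), and without control library 1 or 3 or ISP-I library 1 or 3 (0.0962 to 0.155). In A549 it passed without control library 3 (-0.43, adjusted p = 0.000452). MANF, a secreted ER stress protein, stood at 28.7, 23.9 and 58.8 FPKM in the treated H460 libraries, so that ISP-I library 3 alone lay above the controls at 30.9, 30.7 and 32.0 FPKM. Its log2 fold change was 0.13 ± 0.285 in H460, or 0.28 relative to all genes (adjusted p = 0.69) against 0.05 ± 0.114 in A549 (adjusted p = 0.718), or 0.19 in A549 without control library 3 (adjusted p = 0.00886).

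**Figure D3:**
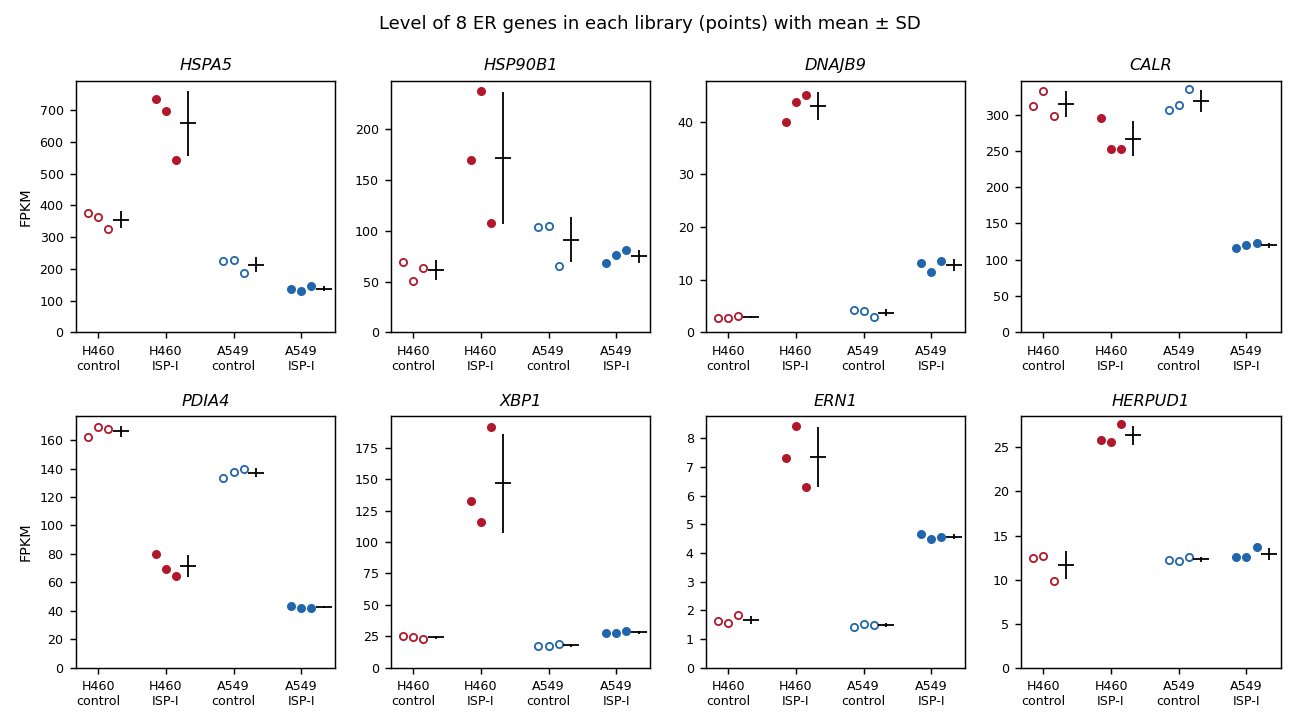
FPKM of 8 ER genes in each of the 12 libraries (points; vertical axis from 0) with the mean and SD of each group of 3 beside them. Control and ISP-I points are open and filled, H460 is red and A549 blue. HSPA5 rises in H460 and falls in A549, CALR separates in A549, and PDIA4 falls in each line.

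Among lectin chaperones, disulfide isomerases and oxidases, falls outnumbered rises in A549. Of these 8 genes, 2 rose and 2 fell in H460 (median log2 fold change -0.08), and 1 rose and 5 fell in A549 (median -0.43). The shares of all genes were 27.6% and 41.5% in H460 and 30.5% and 27% in A549. PDIA4 (ERp72; ENSG00000155660, chr7:149003062-149028662), a disulfide isomerase, fell in each line. Its levels were 162, 169 and 168 FPKM in H460 controls and 80.3, 69.3 and 64.8 FPKM with ISP-I. In A549 they were 134, 138 and 139.7 FPKM in controls and 43.2, 41.9 and 42.1 FPKM with ISP-I. Controls and treated libraries lay far apart, with means falling to 0.430 of the control in H460 and 0.310 in A549. The log2 fold change was -1.21 ± 0.131 in H460, or -1.06 relative to all genes (adjusted p = 5.64e-05), and -1.67 ± 0.0599 in A549 (adjusted p = 6.25e-07). With median-of-ratios scaling the H460 fold change was -0.91, under a fold of 2.

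CALR (calreticulin; ENSG00000179218, chr19:12938578-12944489), a soluble lectin chaperone that also binds calcium, fell in A549. It stood at 306, 314 and 335 FPKM in A549 controls and 117, 120.5 and 123 FPKM with ISP-I. In H460 it stood at 312, 333 and 298 FPKM in controls and 295, 252 and 253 FPKM with ISP-I. The A549 treated libraries held well under the level of the controls, while the H460 groups lay close together without overlap. On the log2 scale the change was -1.40 ± 0.0699 in A549 (adjusted p = 2.44e-06) and -0.24 ± 0.146 in H460, or -0.09 relative to all genes (adjusted p = 0.175), and the H460 value was 0.06 with median-of-ratios scaling. A fit of all 12 libraries gave the H460 value an adjusted p of 0.0455. CANX (calnexin), its membrane-bound relative, went from 240.4 ± 16.8 to 351 ± 63.4 FPKM in H460, 0.53 ± 0.176 on the log2 scale (adjusted p = 0.0257). That call was lost without any of the H460 control libraries or ISP-I library 1 or 2 (adjusted p = 0.0581 to 0.0999) and with quantile normalization (0.102). The H460 value of CANX was 0.68 relative to all genes, 0.83 with median-of-ratios scaling (adjusted p = 0.00287), 0.83 by limma voom (0.00059), 0.72 after removal of each library's trend with gene length (0.0013) and 0.68 without ISP-I library 3 (0.000594). In A549 the CANX change was 0.24 ± 0.104 (adjusted p = 0.0772), or 0.13 (adjusted p = 0.0282) without control library 3 and 0.26 (adjusted p = 0.0205) after removal of the length trend.

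PDIA3 (ERp57; ENSG00000167004, chr15:43746410-43773278), the isomerase that works with CALR and CANX, also fell in A549. Its levels there were 54.4, 53.5 and 52.9 FPKM in controls and 33.4, 31.1 and 33.6 FPKM with ISP-I. In H460 they were 70.3, 68.4 and 64.6 FPKM and 77.8, 73.8 and 63.8 FPKM. The A549 groups stood clear of each other and the H460 groups overlapped, with log2 fold changes of -0.70 ± 0.0625 (adjusted p = 4.26e-05) and 0.08 ± 0.125, or 0.23 relative to all genes (adjusted p = 0.595). PDIA3 overlaps ELL3 and AC018512.1, and the strand setting of the counting is not stated. PDIA6 fell in A549 by 0.66 ± 0.0654 on the log2 scale (adjusted p = 7.39e-05) and P4HB, the founding disulfide isomerase, by 0.21 ± 0.0732 (adjusted p = 0.037). The call of P4HB was lost without A549 control library 2 or any A549 ISP-I library (adjusted p = 0.0647 to 0.134) and in a fit of all 12 libraries (0.109). In H460 PDIA6 had -0.31 ± 0.149 (adjusted p = 0.0967; 0.0263 in a fit of all 12 libraries) and P4HB 0.13 ± 0.144 (adjusted p = 0.441). With median-of-ratios scaling, PDIA3 and P4HB passed the test in H460 as higher (0.38 and 0.43, adjusted p = 0.0277 and 0.0314).

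The ER oxidases, which supply disulfide bonds to the isomerases, went different ways. ERO1B (ENSG00000086619, chr1:236215101-236281958) rose from 2.11, 1.55 and 1.62 FPKM in H460 controls to 9.01, 12.1 and 9.91 FPKM with ISP-I. In A549 it rose from 1.77, 1.95 and 1.63 FPKM to 4.37, 3.80 and 3.89 FPKM. All treated libraries lay above all controls, 5.87-fold higher in H460 and 2.25-fold in A549 as ratios of means. Limma gave a log2 fold change of 2.03 ± 0.142 in H460, or 2.18 relative to all genes (adjusted p = 5.04e-06), and 0.85 ± 0.0855 in A549 (adjusted p = 7.82e-05). ERO1B overlaps GPR137B, and the strand setting of the counting is not stated. ERO1A (ENSG00000197930, chr14:52639915-52695900), its paralog, fell in H460 from 14.2, 11.7 and 12.5 FPKM to 6.82, 7.04 and 5.38 FPKM. In A549 ERO1A stood at 15.2, 15.2 and 12.5 FPKM in controls and 13.0, 13.1 and 13.2 FPKM with ISP-I. The H460 groups did not overlap, and the treated A549 libraries lay inside the range of their controls. The ERO1A log2 fold change was -0.90 ± 0.133 in H460, or -0.75 relative to all genes (adjusted p = 0.000366), and -0.11 ± 0.0854 in A549 (adjusted p = 0.295), or -0.20 in A549 without control library 3 (adjusted p = 0.00523).

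Sensors and transcription factors passed the test in H460 without exception and in A549 with the exception of WFS1. Of these 5 genes, 4 rose and 1 fell in H460 (median log2 fold change 0.76), and 3 rose and 1 fell in A549 (median 0.25). Rises and falls covered 27.6% and 41.5% of all genes in H460, and 30.5% and 27% in A549. XBP1 (ENSG00000100219, chr22:28794555-28800597), the transcription factor that ERN1 activates, had levels of 25.4, 24.3 and 22.6 FPKM in H460 controls and 133, 116 and 191 FPKM with ISP-I. In A549 they were 17.0, 17.2 and 19.2 FPKM in controls and 27.8, 27.4 and 29.4 FPKM with ISP-I. Treated libraries were far above the controls in H460, 6.08-fold by means, and 1.58-fold above them in A549. This made a log2 fold change of 2.53 ± 0.185 in H460, or 2.67 relative to all genes (adjusted p = 6.53e-06), and 0.64 ± 0.072 in A549 (adjusted p = 0.000147).

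ERN1 (IRE1; ENSG00000178607, chr17:64039142-64130819), the sensor kinase and nuclease, rose over 2-fold in each line. It went from 1.64, 1.55 and 1.83 FPKM to 7.31, 8.41 and 6.30 FPKM in H460. In A549 it rose from 1.43, 1.53 and 1.50 FPKM to 4.66, 4.50 and 4.55 FPKM. The groups lay far apart in each line, 4.39-fold and 3.07-fold by means, and the control values rest on 221 to 296 reads per library. As a log2 fold change this was 1.64 ± 0.127 in H460, or 1.78 relative to all genes (adjusted p = 8.72e-06), and 1.16 ± 0.0715 in A549 (adjusted p = 6.41e-06).

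ATF6 (ENSG00000118217, chr1:161766320-161964070), the sensor that is itself a transcription factor, had levels of 17.2, 15.9 and 15.0 FPKM in H460 controls and 29.1, 29.5 and 21.5 FPKM with ISP-I. In A549 they were 7.43, 7.41 and 6.98 FPKM and 8.92, 8.52 and 9.09 FPKM. Treated libraries lay above controls in each line, by 0.25 ± 0.0687 on the log2 scale in A549 (adjusted p = 0.0142) and by 0.69 ± 0.145 in H460, or 0.84 relative to all genes (adjusted p = 0.00272). The A549 call was lost without ISP-I library 1 or 3 (adjusted p = 0.0531 and 0.062) and in a fit of all 12 libraries (0.0751). CREB3L2 (ENSG00000182158, chr7:137874979-138002086), a membrane-bound factor of the secretory pathway, stood at 11.3, 11.0 and 12.1 FPKM in H460 controls and 20.1, 25.3 and 16.0 FPKM with ISP-I. In A549 it stood at 9.97, 10.3 and 9.22 FPKM and 8.02, 8.22 and 8.38 FPKM. The treated libraries were the higher in H460 and, by little, the lower in A549. In limma the log2 change was 0.76 ± 0.162 in H460, or 0.91 relative to all genes (adjusted p = 0.00287) against -0.23 ± 0.0703 in A549 (adjusted p = 0.0222). The A549 call was lost without control library 1 or 2 or any ISP-I library (adjusted p = 0.0574 to 0.0791) and in a fit of all 12 libraries (0.147). WFS1 (ENSG00000109501, chr4:6269849-6303265), an ER membrane protein that restrains ATF6, fell in H460 from 5.25, 4.86 and 5.61 FPKM to 2.83, 2.35 and 2.33 FPKM. In A549 its levels were 8.66, 10.4 and 10.2 FPKM in controls and 8.04, 8.48 and 8.67 FPKM with ISP-I. The H460 groups stood apart and the A549 groups overlapped. The log2 fold change was -0.83 ± 0.114 in H460, or -0.69 relative to all genes (adjusted p = 0.000236) against -0.19 ± 0.0841 in A549 (adjusted p = 0.0871), or -0.26 in A549 without control library 1 (adjusted p = 0.0284).

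ERAD genes mostly did not pass the test in H460. Of the 10 genes there, 2 rose, 1 fell and 7 did not pass (median log2 fold change 0.04), and of 9 tested in A549, 2 rose and 4 fell (median -0.17). Beside this, 27.6% of all genes rose and 41.5% fell in H460, and 30.5% rose and 27% fell in A549. HERPUD1 (ENSG00000051108, chr16:56932142-56944864), a membrane protein of the ERAD complex and a known UPR target, stood at 12.5, 12.7 and 9.81 FPKM in H460 controls and 25.8, 25.6 and 27.6 FPKM with ISP-I. In A549 it stood at 12.3, 12.1 and 12.6 FPKM and 12.5, 12.5 and 13.7 FPKM. Its H460 level rose 2.26-fold by means, and its A549 groups overlapped. On the log2 scale the change was 1.12 ± 0.127 in H460, or 1.27 relative to all genes (adjusted p = 7.78e-05), and 0.06 ± 0.067 in A549 (adjusted p = 0.439). EDEM2 (ENSG00000088298, chr20:35115364-35147336), which starts mannose trimming of misfolded glycoproteins, fell in H460 from 32.5, 38.8 and 30.2 FPKM to 15.2, 11.5 and 15.7 FPKM. In A549 it fell from 27.0, 28.5 and 35.8 FPKM to 15.9, 17.5 and 17.4 FPKM. No treated library reached a control, and the log2 fold change was -1.21 ± 0.153 in H460, or -1.06 relative to all genes (adjusted p = 0.000152), and -0.80 ± 0.107 in A549 (adjusted p = 0.000353). With median-of-ratios scaling the H460 value was -0.92.

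The ubiquitin ligase of ERAD, SYVN1 (HRD1; ENSG00000162298, chr11:65121780-65134532), had levels of 9.11, 8.74 and 9.38 FPKM in A549 controls and 6.25, 6.02 and 5.24 FPKM with ISP-I. In H460 they were 7.23, 8.29 and 9.54 FPKM and 8.66, 9.04 and 8.12 FPKM. SYVN1 overlaps MRPL49 and FAU, and the strand setting of the counting is not stated. The A549 groups were apart and the H460 groups overlapped, with log2 fold changes of -0.56 ± 0.0818 (adjusted p = 0.000571) and 0.04 ± 0.125, or 0.19 relative to all genes (adjusted p = 0.764). Its adaptor SEL1L had -0.50 ± 0.143 in A549 (adjusted p = 0.0168), a call that was lost without A549 control library 1 or any A549 ISP-I library (adjusted p = 0.0514 to 0.0595), and 0.04 ± 0.188 in H460 (adjusted p = 0.871). The paralogs EDEM1 and EDEM3 had 0.30 ± 0.0687 (adjusted p = 0.00572) and -0.17 ± 0.185 (adjusted p = 0.462) in A549, and 0.05 ± 0.124 (adjusted p = 0.737) and -0.51 ± 0.235 (adjusted p = 0.0842) in H460. EDEM1 passed as higher in H460 by limma voom with median-of-ratios factors (0.36, adjusted p = 0.0477). EDEM3 passed as lower without A549 control library 3 (-0.41, adjusted p = 0.000499) and without H460 ISP-I library 2 (-0.73, adjusted p = 0.0102). Among the derlins, which form the ERAD channel, DERL2 rose by 0.56 ± 0.129 in H460 (adjusted p = 0.0042) and also rose, by 0.46 ± 0.0658, in A549 (adjusted p = 0.000491). DERL1 had -0.26 ± 0.0703 in A549 (adjusted p = 0.0134), lost without A549 ISP-I library 3 (adjusted p = 0.0631), and -0.06 ± 0.104 in H460 (adjusted p = 0.596). DERL3 held 7 to 15 reads in the H460 controls and 4 to 6 with ISP-I, too few for a fold change, and its call in H460 depended on the setting (adjusted p = 0.0522, and 0.0188 to 0.0332 under 5 alternatives). OS9, the lectin that delivers substrates to SEL1L, passed in neither line, with 0.20 ± 0.125 in H460 (adjusted p = 0.188; 0.49 and 0.00854 with median-of-ratios scaling) and -0.09 ± 0.0688 in A549 (adjusted p = 0.274).

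Of the SEC61 channel, the small subunit SEC61B rose and the pore subunit SEC61A1 did not pass the test. SEC61B stood at 73.7, 65.3 and 49.4 FPKM in H460 controls and 97.2, 92.5 and 206 FPKM with ISP-I. In A549 it stood at 59.6, 54.2 and 70.6 FPKM and 102, 109.7 and 109.5 FPKM. The treated libraries lay above the controls in each line, and H460 ISP-I library 3 lay far above the other two. Its log2 fold change was 0.97 ± 0.302 in H460, or 1.12 relative to all genes (adjusted p = 0.0187; 0.0751 without H460 control library 3; 1.01 to 1.18 without H460 control library 1 or 2 or ISP-I library 1 or 2) and 0.80 ± 0.0996 in A549 (adjusted p = 0.000251). SEC61A1 had 0.14 ± 0.121 in H460 (adjusted p = 0.338), or 0.44 with median-of-ratios scaling (adjusted p = 0.0141), beside 0.00 ± 0.0804 in A549 (adjusted p = 0.984).

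The difference between the lines was tested as the interaction of line and treatment over all 12 libraries. Of the 34 ER genes tested, 16 had a higher change in H460 than in A549, 2 a lower one and 16 did not pass, where 18.6% and 34.7% of all 13953 genes passed. At a difference over 1 on the log2 scale, 8 ER genes were higher (HSPA5, HSP90B1, DNAJB9, DNAJC3, CALR, ERO1B, XBP1 and HERPUD1) and 0 lower, where 5.93% and 10.1% of all genes passed. HERPUD1 lay near this limit, at 1.05, and had 0.94 without H460 control library 3. CREB3L2, at 0.99, had 1.01 to 1.15 when library 3 of any 1 group was left out. The count of 0 was the same at an unadjusted p under 0.05 (0) and by limma voom (0), and the 2 genes lower at any size were ERO1A and WFS1. The median difference was 0.40 for the ER genes and -0.16 for all genes, and median-of-ratios scaling moved the latter by 0.18 and gave 25 of 34 ER genes as higher, beside 27.3% of all genes. The difference was 1.95 ± 0.159 for DNAJB9 (adjusted p = 1.23e-06), 1.89 ± 0.207 for XBP1 (adjusted p = 1.22e-05) and 1.66 ± 0.359 for HSP90B1 (adjusted p = 0.002). For HSPA5 it was 1.50 ± 0.19, or 1.66 relative to all genes (adjusted p = 3.83e-05), where the lines moved in opposite directions. CALR had 1.16 ± 0.14 (adjusted p = 2.61e-05), a difference that came with a fall in A549 and no passed test in H460. The genes that fell in each line did not pass as different except PDIA4, with 0.46 ± 0.126 (adjusted p = 0.00918). For SDF2L1 the difference was -0.67 ± 0.33 (adjusted p = 0.108), for EDEM2 -0.40 ± 0.195 (adjusted p = 0.0994) and for HYOU1 0.11 ± 0.115 (adjusted p = 0.431; 0.41 and 0.0107 with median-of-ratios scaling). SDF2L1 and EDEM2 passed as lower without H460 ISP-I library 3 (-0.95 and -0.48, adjusted p = 0.00603 and 0.0491) or without A549 control library 3 (-0.85 and -0.52, adjusted p = 0.044 and 0.032), so that 4 genes were then lower. Without H460 ISP-I library 3, SEL1L, CANX, PDIA6 and P4HB also passed as higher (0.74, 0.44, 0.46 and 0.37, adjusted p = 0.0111, 0.0273, 0.00938 and 0.0371), which made 20. SEL1L also passed without A549 control library 3 (0.72, adjusted p = 0.0211), and OS9 and P4HB without H460 ISP-I library 2 (0.38 and 0.40, adjusted p = 0.0161 and 0.0429). The difference of ATF6, 0.44 ± 0.156 (adjusted p = 0.0317), lost its call without any 1 of 9 libraries (adjusted p = 0.0502 to 0.0771) and kept it without H460 control library 1, H460 ISP-I library 3 or A549 control library 3.

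**Figure D4:**
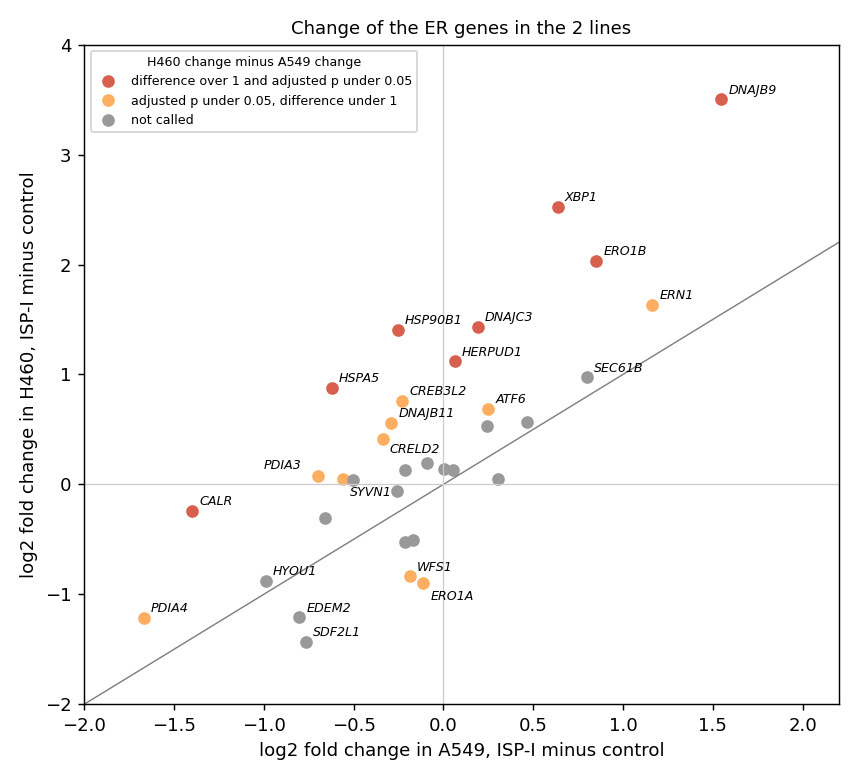
Log2 fold change after ISP-I in A549 (horizontal axis) and H460 (vertical axis) of the 34 ER genes tested in both, on log2(FPKM + 1), with the line of equal change. Red points differ between the lines by over 1 with an adjusted p under 0.05, orange points pass the adjusted p with a smaller difference, and the red points all lie above the line.

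Of the 11 genes with an ERSE or ERSE-II match, 7 passed the test of the difference between the lines. In all, 7 rose and 2 fell in H460 (median log2 fold change 0.53), and 2 rose and 6 fell in A549 (median -0.34). The difference was called higher in those 7 by limma at any size, with a median of 1.05, and lower in 0, also at an unadjusted p under 0.05 and by limma voom (0 and 0). Of the 21 genes with neither match, 8 rose and 5 fell in H460 (median 0.13), 6 rose and 7 fell in A549 (median -0.11), and the difference was higher in 8 and lower in 2 (median 0.29). Of all genes, 27.6% rose and 41.5% fell in H460, 30.5% rose and 27% fell in A549, and the difference was higher in 18.6% and lower in 34.7%. These counts are a description, and no test was made of the groups of genes. Of the 8 ERSE genes, HSPA5, HSP90B1, CRELD2, CANX, ERO1B and XBP1 rose in H460 and CALR and PDIA6 did not pass there, other than as lower in a fit of all 12 libraries. Allowing 1 mismatch in the fixed letters of ERSE gave 15 of 32 ER genes (46.9%) and 1.89% of all genes.

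Untreated H460 and A549 cells differed in the starting level of ER genes about as often as of all genes, taking both directions together. At any fold, 15 of 35 were higher and 6 lower in H460 controls than in A549 controls, where 28.6% and 31.6% of all 13532 genes passed, and the median difference was 0.18 for the ER genes and -0.03 for all genes. The 15 include DERL3, which held 7 to 15 reads in H460 controls and 0 to 3 in A549 controls, too few for a fold change. At a fold over 2, HYOU1 (1.10 ± 0.0907, adjusted p = 1.26e-05) and ATF6 (1.04 ± 0.0864, adjusted p = 1.34e-05) were higher in H460, where 5.64% of all genes passed. In the other direction 0 ER genes passed in limma, also at an unadjusted p under 0.05 (0) and by limma voom (0), where 8.78% of all genes did. Without H460 control library 1 the value of ATF6 was 0.99 and HYOU1 alone was over 2-fold, and without other libraries SDF2L1 or EDEM3 passed as well (1.03 and 1.13 for SDF2L1 without H460 or A549 control library 3, and a value just over 1 for EDEM3 without control library 2 of either line). HSPA5 started 0.73 ± 0.116 higher in H460 (adjusted p = 0.000683), and WFS1 and EDEM1 started lower there, at -0.78 ± 0.1 (adjusted p = 0.000204) and -0.60 ± 0.0935 (adjusted p = 0.000644). CALR had -0.02 ± 0.0981 (adjusted p = 0.877), with 314 ± 17.5 FPKM in H460 and 318 ± 15.0 FPKM in A549 controls (mean ± SD, n = 3). The controls used here are those of the comparisons above.

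Other genes of the ER were counted in lists written with earlier results of these data known. Their counts stand beside the 27.6% of all genes that rose and 41.5% that fell in H460, and the 30.5% and 27% in A549. Of 8 genes of the PERK branch, 6 rose and 1 fell in each line, with medians of 1.08 in H460 and 1.17 in A549. The largest change was that of PPP1R15A (GADD34), the phosphatase subunit that reverses the PERK signal, with a log2 fold change of 6.34 ± 0.168 in H460 (adjusted p = 9.48e-08) beside 3.68 ± 0.0882 in A549 (adjusted p = 1.09e-07). Among 22 genes of translocation and signal peptide cleavage, 13 rose and 1 fell in H460 (median 0.60), and 13 rose and 0 fell in A549 (median 0.44; limma, with 0 also at an unadjusted p under 0.05 and 0 by limma voom). The largest were SRP19 (1.65 ± 0.138, adjusted p = 1.31e-05), a signal recognition particle subunit, in H460 and the channel subunit SEC61G (1.24 ± 0.0853, adjusted p = 1.12e-05) in A549. Of 22 other foldases, 4 rose and 11 fell in H460 (median -0.34) and 5 rose and 8 fell in A549 (median -0.14), led by TMX4 (-2.59 ± 0.13, adjusted p = 1.14e-06) and the collagen chaperone SERPINH1 (-1.11 ± 0.0915, adjusted p = 2.77e-05). Of 7 other UPR sensors and processing factors tested, 1 rose and 3 fell in H460 and 2 rose and 3 fell in A549, and MBTPS1, the protease that first cuts ATF6, fell by 2.33 and 1.41 on the log2 scale (adjusted p = 8.66e-07 and 1.61e-06).

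Of 20 other ERAD genes, 6 rose and 9 fell in H460 (median -0.15) and 4 rose and 8 fell in A549 (median 0.01), and the largest changes were TMUB1 in H460 (-2.11 ± 0.20, adjusted p = 2.67e-05) and SELENOS in A549 (1.47 ± 0.103, adjusted p = 1.22e-05). The oligosaccharyltransferase, which adds N-glycans, had 3 of 11 genes lower and 0 higher in H460 (median -0.13; limma, with 1 higher at an unadjusted p under 0.05 and 3 by limma voom) and 7 lower and 3 higher in A549 (median -0.35). Its largest changes were KRTCAP2 in H460 (-0.64 ± 0.12, adjusted p = 0.00144) and RPN2 in A549 (-1.21 ± 0.0686, adjusted p = 4.44e-06). Of 15 genes of COPII transport and retrieval, 7 rose and 3 fell in H460 (median 0.30) and 6 rose and 4 fell in A549 (median 0.10), led by the coat subunits SEC24A (2.23 ± 0.199, adjusted p = 1.9e-05) and SEC23B (1.08 ± 0.0643, adjusted p = 5.57e-06). Of 10 ER calcium genes, 2 rose and 2 fell in H460 (median -0.06) and 2 rose and 4 fell in A549 (median -0.11), and STC2, a secreted glycoprotein induced in ER stress, changed most, by 1.67 ± 0.125 and 1.48 ± 0.0663 (adjusted p = 7.33e-06 and 1.54e-06). The counts of the other ERAD genes in H460 lay near the shares of all genes. The medians stand beside -0.15 in H460 and 0.02 in A549 for all genes.

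Libraries differed among themselves by gene length, most of all in 2 groups. H460 ISP-I library 3 and A549 control library 3 had higher values than the other two of their group in short genes and lower values in long ones. Genes under 2000 bases deviated by a median of 0.49 and 0.23 on the log2 scale, and genes over 6000 bases by -0.23 and -0.11. Across genes the deviation had a Spearman correlation with length of -0.546 and -0.393 over all genes, and of -0.566 and -0.577 over the 34 ER genes, as a description, since genes of a library share its preparation. H460 ISP-I library 2 and A549 control library 2 had the opposite trend, at 0.507 and 0.407 over all genes, with genes under 2000 bases at -0.37 and -0.18. The H460 controls had weaker trends over all genes, at -0.217 in library 2 and 0.139 in library 3. Over the 34 ER genes these were -0.563 and 0.389. The short SEC61B, SDF2L1 and MANF lay highest in H460 ISP-I library 3, and the longer HSP90B1, EDEM3 and SEL1L lay lowest there and in A549 control library 3. After removal of each library's trend with length, 18 ER genes rose and 7 fell in H460, 9 rose and 15 fell in A549, and the difference between the lines was higher in 24 and lower in 2 of 34. The shares for all genes were then 37.2% and 31.1% in H460, 29.6% and 29.3% in A549, and 30.5% and 22.3% for the difference.

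**Figure D5:**
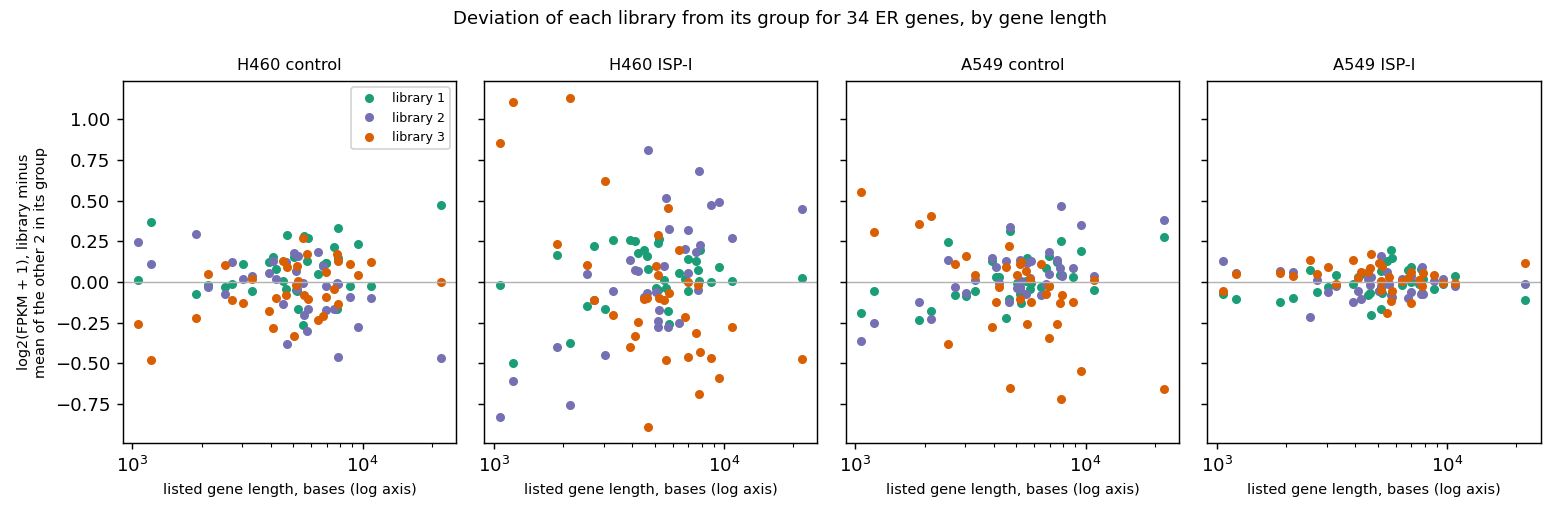
Deviation of each library from the other two of its group (vertical axis, log2(FPKM + 1)) for the 34 ER genes against listed gene length (horizontal log axis, bases), for each group of 3 libraries. Library 3 (orange) runs from above 0 in short genes to below 0 in long genes in H460 ISP-I and A549 control, and the A549 ISP-I libraries stay near 0.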

How the data were processed

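RNA was extracted with TRIzol and RNeasy, made into libraries with the TruSeq RNA kit and sequenced as paired reads on a NovaSeq 6000. The authors used FastQC as a filter, HISAT2 with hg38 for mapping and HTSeq 0.9.1 for counting, and deposited FPKM. The annotation version and strand setting are not given in the sources used here. Besides the overlaps named with the results, CANX, PDIA6, DERL1, DERL2, DERL3 and SEC61A1 also overlap other listed genes. Gene lengths are in bases, another unit. The product of FPKM and gene length came in whole steps for every value (within 0.05 read, or a relative 5e-05 above 1000 reads), which gave the reads per library. The whole table was fitted, and 4 lines that were pieces of an annotation cell were left out.

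The members and lists were chosen with earlier results of these data known. The columns tell line and treatment only. Within a line, log2(FPKM + 1) was compared by the trended test of limma 3.58.1 (R 4.3.3). Genes averaging 0.1 FPKM or more were tested, with p values adjusted by Benjamini-Hochberg over all genes tested. A gene was called at an adjusted p under 0.05, at any fold and at a fold over 2 as in the study. Lines were compared by the interaction term in a fit of all 12 libraries. A pseudocount of 1 draws fold changes of low genes toward 0. Genes named in full were those called at a fold over 2 in either line or for a difference between the lines, and the largest change was named for each list. The ± after a fold change is the SE. Where a value relative to all genes is given, the SE and adjusted p belong to the fold change before that shift. The shifted value was not tested. The scripts were tested on simulated data, and Python 3.11.15 with pandas 2.3.3 was used.

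Alternatives were no filter, a minimum of 1 FPKM on average, a pseudocount of 0.1, median-of-ratios scaling, quantile normalization, limma voom on the recovered reads (at least 10 in 3 libraries), a fit of all 12 libraries and leaving out each library. Removal of each library's trend with gene length (lowess, span 0.3) was added after the data were seen. Protein sequences of the genes were not used here.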

Additional observations from a re-analysis of the deposited data

Results flagged for a closer look

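The change after ISP-I differed between the lines, by the interaction test in limma, in 18 of the 34 ER genes tested. A higher change in H460 was called in 47.1% of the 34 and a lower one in 5.88%. Of all 13953 genes tested, 18.6% passed as higher and 34.7% as lower. In this fit the ER genes thus passed about as often as all genes, and what differed was the direction. Under some other settings they passed more often. With median-of-ratios scaling 73.5% passed as higher and 5.88% as lower, beside 27.3% and 23.5% of all genes. By limma voom with median-of-ratios factors 73.5% and 5.88% passed, beside 24.9% and 23%. After removal of the length trend the shares were 70.6% and 5.88%, beside 30.5% and 22.3%. The values that follow are the H460 change minus the A549 change on log2(FPKM + 1) in the first fit. Among chaperones they were 1.50 for HSPA5, 1.66 for HSP90B1, 1.95 for DNAJB9, 0.85 for DNAJB11, 1.24 for DNAJC3 and 0.75 for CRELD2. Among lectins, isomerases and oxidases they were 1.16 for CALR, 0.78 for PDIA3, 0.46 for PDIA4, -0.79 for ERO1A and 1.18 for ERO1B. Among sensors and factors they were 1.89 for XBP1, 0.47 for ERN1, 0.44 for ATF6, 0.99 for CREB3L2 and -0.65 for WFS1. In ERAD they were 0.61 for SYVN1 and 1.05 for HERPUD1. The 16 positive values include genes that rose more in H460, such as DNAJB9, genes that fell only in A549 by the test, such as CALR, and genes that fell less in H460, such as PDIA4. All 18 kept their direction under every alternative run.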

How the results depend on the processing

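No value of a single ER gene changed direction past the threshold under any alternative. Counts that moved by over 1.5 times were these. In H460, 3 genes were lower at a fold over 2, and 1 with median-of-ratios scaling, 1 with limma voom and median-of-ratios factors, 1 after removal of the length trend and 5 with limma voom and library totals. There, 7 were higher and 11 with limma voom and median-of-ratios factors. The lines differed with a higher H460 change in 16 genes, and in 25 with median-of-ratios scaling and 25 with limma voom. At over 1 they were 8, and 13 with limma voom. Leaving out each library gave 2 to 4 genes with a lower H460 change (4 without H460 ISP-I library 3 or A549 control library 3) and 1 to 3 genes over 2-fold higher in H460 controls than in A549 controls (1 without H460 control library 1). The other counts then ranged over 12 to 15 and 6 to 8 (H460 higher and lower), 7 to 10 and 10 to 19 (A549), and 15 to 20 (higher H460 change). For untreated H460 against untreated A549 they ranged over 12 to 14 higher and 4 to 7 lower at any fold. With all libraries these were 15 and 6. Median-of-ratios scaling added calls in H460 for SEC61A1, OS9, PDIA3 and P4HB. The causes were not tested. Depth limited DERL3, at 15 reads or fewer. No paired analysis was possible because the columns do not carry the replicate numbers of the labels.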
